A study of Cavia porcellus with 72 samples.

Results

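Transcripts of the corticotropin-releasing hormone (CRH) system and of stress-related neuropeptides were followed in the hippocampus of female guinea pigs over 3 generations. The 10 genes, taken by symbol with letter case ignored, were CRH, CRHBP, CRHR1, CRHR2, NTS, NTSR1, NTSR2, PENK, PDYN and ADCYAP1. Of these, 8 stood in each of the 3 count tables, which hold 11651 genes in F1, 11716 in F2 and 11663 in F3, and all 8 had enough reads to be tested in every generation. CRHR1 and NTSR2 were not analysed here.

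Pregnant Dunkin-Hartley guinea pigs (F0) received repeated courses of betamethasone, a synthetic glucocorticoid (sGC), or saline (control). F1 females were exposed before birth, whereas F2 and F3 females descended from the treated or saline pregnancies through F1 and F2 males mated with untreated females. All animals were females killed undisturbed on postnatal day 40, and mRNA of the powdered right hippocampus was sequenced, 1 library per animal. There were 6 control and 5 sGC libraries in F1, 6 and 6 in F2, and 6 and 7 in F3.

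CRH is the peptide that starts the hormonal stress response in the hypothalamus, and in the hippocampus it is made mainly by interneurons. Its actions depend on a secreted binding protein, CRHBP, which sequesters the peptide, and on receptors coupled to G proteins, of which CRHR2 prefers the urocortins. Neurotensin (NTS) signals through NTSR1, enkephalins (from PENK) and dynorphins (from PDYN) act on opioid receptors, with dynorphin typical of dentate granule cells, and PACAP (from ADCYAP1) raises cyclic AMP in its target cells.

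The libraries held 13507449 to 19767033 counted reads, and levels are given as counts per 1e+06 reads (CPM) after TMM scaling, a correction for differences in RNA composition between libraries. Libraries are named by group and by the replicate number of their label. All 5 libraries numbered 32 to 36 were sGC libraries, so these numbers and sGC treatment overlap in part: sGC replicates 4 and 5 of F1, 6 of F2, and 5 and 6 of F3. Of 10 markers of hippocampal excitatory neurons, 9 were in the tables, and their summed level lay between 7094 and 10981 CPM over all libraries. Of 10 hypothalamic markers only OXT, AVP, HCRT and SIM1 were in the tables, with a summed level of 13.9 to 20.3 CPM.

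In F1, the transcript of the neurotensin receptor NTSR1 was the only one of the 8 that passed the test, and it fell in sGC animals to 0.723 of the control level. CRHR2 was higher in all 5 F1 sGC animals than the control mean but did not pass the test. In F2 and F3 none of the 8 passed. The sGC effect on NTSR1 differed between F1 and F2, where NTSR1 lay above the control mean in 6 of 6 sGC animals. Across all genes, 2.08% passed in F1 and 5.04% in F3, against 0% in F2.

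**Figure D1:**
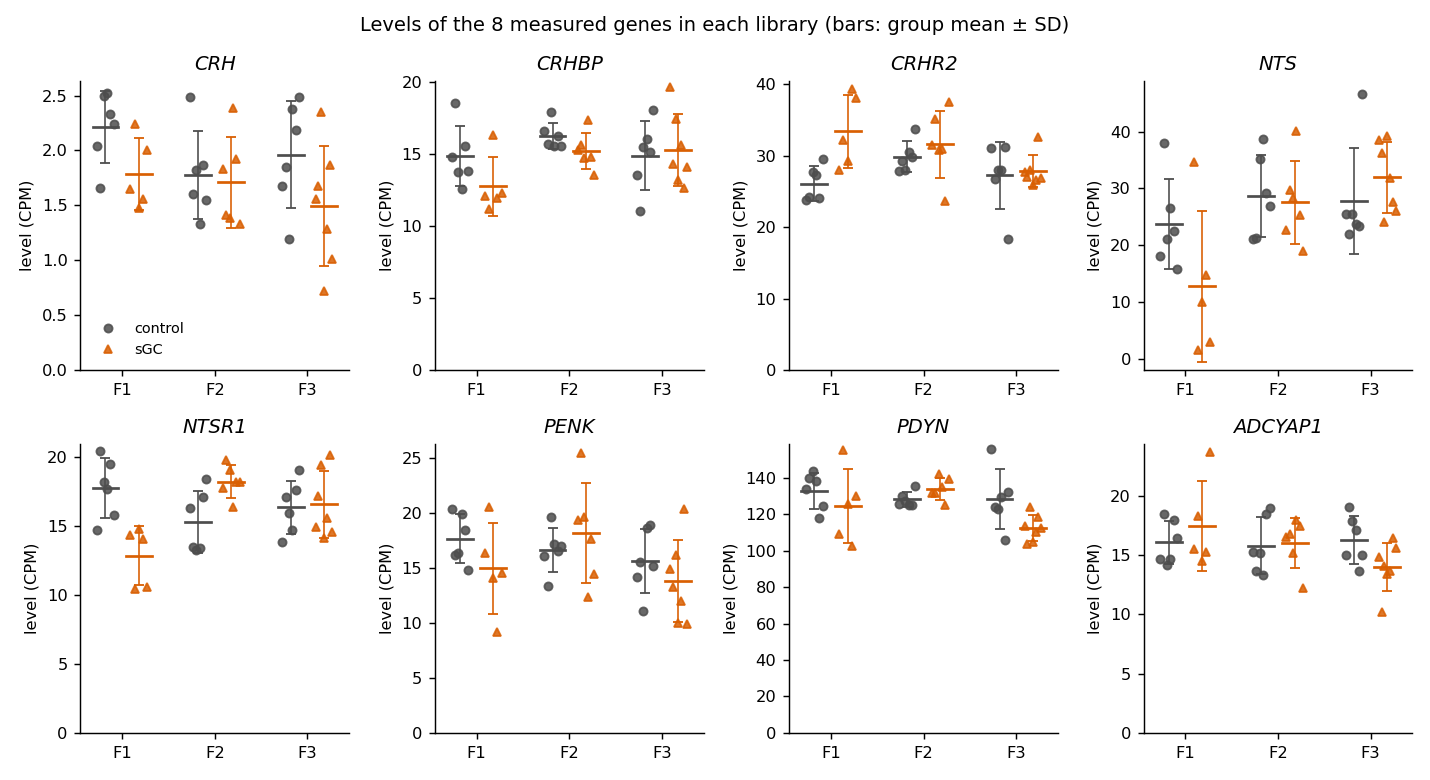
Level in CPM (vertical axis) of each of the 8 genes in every library of F1, F2 and F3 (horizontal axis), with control as grey circles and sGC as orange triangles; horizontal lines are group means and bars 1 SD. The 5 F1 sGC points of NTSR1 lie between 10.4 and 14.8 CPM against 14.7 to 20.5 CPM in F1 control, and 2 F1 sGC points of NTS lie at 1.55 and 2.94 CPM, below every other library.

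NTSR1 is the high-affinity receptor for neurotensin. In F1 control animals its level ran from 14.7 CPM over a median of 17.9 CPM to 20.5 CPM. The F1 sGC animals had 14.4, 10.4, 14.8, 14.1 and 10.6 CPM in replicates 1 to 5. All 5 sGC values were under the control mean and 4 of the 5 lay below the lowest control, so that the groups overlapped only through sGC replicate 3 and control replicate 1, which differed by less than 0.1 CPM. Mean levels were 17.7 ± 2.17 CPM in control (SD, n = 6) and 12.9 ± 2.16 CPM in sGC animals (SD, n = 5). The log2 fold change was -0.47 (SE 0.113, 95% interval -0.69 to -0.25), with an adjusted p of 0.0494 by the edgeR quasi-likelihood test, Benjamini-Hochberg adjusted over 11377 genes. A two-sided exact permutation test of this gene alone gave p = 0.00649. The adjusted p lay close to the threshold, and the call was lost without libraries 32 to 36 (adjusted p = 0.105) and in 9 of 11 fits that left out 1 library, namely any control, sGC replicate 2, sGC replicate 3 or sGC replicate 5, where the adjusted p reached 0.121 and the log2 fold change stayed between -0.53 and -0.40.

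In hippocampal tissue, fewer cells that express a gene and less RNA per cell cannot be told apart. Markers of other cells also differed between the F1 groups, where 2.08% of all genes passed. All 8 measured meningeal fibroblast markers were lower in F1 sGC animals, and 2 of them, DCN and LUM, fell; their summed level was 101.7 to 283.6 CPM in control and 72.1 to 141.2 CPM in sGC animals. All 8 measured astrocyte markers were higher, none past the test, with sums of 8261 to 10861 CPM in control and 9468 to 15545 CPM in sGC animals, and 7 of 8 interneuron markers were lower, none past the test, with sums of 624.8 to 782.7 and 550.1 to 791.7 CPM. Of 8 striatal markers 6 were lower, with TAC1 called. Their sums were 123.2 to 144.1 CPM in control and 108.1 to 132.5 CPM in sGC animals. Of 6 thalamic markers 2 were higher and 4 lower, with a median of -0.01. RORA was called higher, and the sums were 110 to 136 and 120 to 142 CPM. All 5 measured oligodendrocyte markers were lower, none past the test (2 at an unadjusted p below 0.05), with a median of -0.21 and sums of 1499 to 2017 CPM in control and 1396 to 1857 CPM in sGC animals. Choroid plexus markers summed to 22.62 to 51.02 and 21.29 to 25.35 CPM, with TTR not analysed in this generation. Of 9 excitatory neuron markers 4 were higher and 5 lower, none past the test (2 at an unadjusted p below 0.05). Their sums were 8012 to 9045 CPM in control and 8412 to 10981 CPM in sGC animals. With single F1 libraries left out, DCN was called in 2 of 11 fits (without sGC replicate 1 or 4) and LUM in 5 of 11, lost without control replicate 1, 2, 4 or 6 or sGC replicate 2 or 5. The part of these cells in the F1 values of NTSR1 and of the other 7 genes was not tested.

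In F2, NTSR1 took the opposite direction. Its level ran from 13.2 to 18.4 CPM in control animals, with a median of 14.9 CPM, and from 16.4 to 19.8 CPM in sGC animals, with a median of 18.2 CPM. Every F2 sGC animal lay above the control mean and 2 of 6 lay above the highest control, so the groups overlapped. The log2 fold change was 0.26 (SE 0.0843, 95% interval 0.09 to 0.42), and the adjusted p of 0.678 in the quasi-likelihood test did not pass, with an unadjusted p of 0.0080 and an exact permutation p of 0.0281. In F3 the levels of control animals, 13.82 to 19.03 CPM, and of sGC animals, 14.15 to 20.19 CPM, covered nearly the same range, with a log2 fold change of 0.02 (SE 0.0944, adjusted p = 0.923).

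The difference of the NTSR1 effect between F2 and F1 was tested as an interaction over all 36 libraries and 11390 genes. It was 0.71 on the log2 scale (SE 0.150, adjusted p = 0.0270 in edgeR's quasi-likelihood test), and NTSR1 was the only one of the 8 genes called, where 0.290% of all genes were called. In this joint scaling the 4 group means were 18.1 CPM in F1 control, 13.2 CPM in F1 sGC, 15.2 CPM in F2 control and 18.1 CPM in F2 sGC animals. The 2 control groups themselves differed in NTSR1 (adjusted p = 0.0334 in the quasi-likelihood test), as did 44.9% of all genes. Generation cannot be told apart from breeding time or library numbers, so levels of F1 and F2 animals are not compared directly. The call of the interaction was lost in 7 of 36 fits that left out 1 library, with an adjusted p of at most 0.0656. These fits left out F1 control replicate 5, F1 sGC replicate 2 or 5, F2 control replicate 2 or 4, or F2 sGC replicate 4 or 5. The interaction was still called without libraries 32 to 36. Between F3 and F1 the NTSR1 effect differed by 0.48 (SE 0.147, adjusted p = 0.171), which did not pass, and between F3 and F2 by -0.23 (SE 0.143, adjusted p = 0.647).

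**Figure D2:**
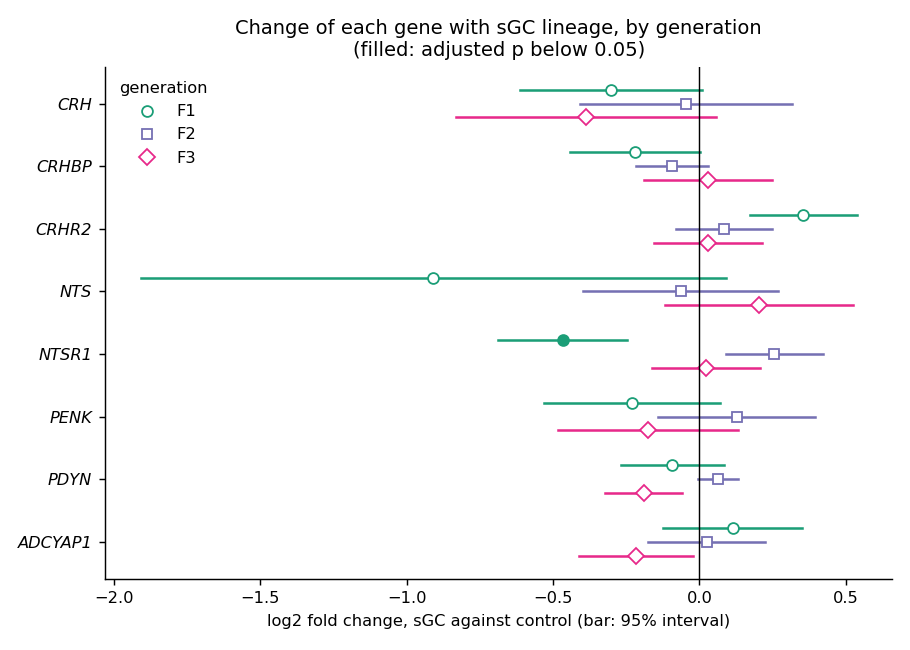
Log2 fold change of sGC against control (horizontal axis) for each of the 8 genes (vertical axis) in F1 (circles), F2 (squares) and F3 (diamonds); bars are 95% intervals and a filled marker is an adjusted p below 0.05. NTSR1 in F1 is the one filled marker, at -0.47, while NTSR1 in F2 lies at 0.26, and NTS in F1 has the widest interval, from -1.91 to 0.09.

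Relative to its mean, neurotensin itself varied more between F1 sGC animals than the other 7 genes. F1 control animals had 15.9 to 38.0 CPM of NTS, with a median of 21.8 CPM. The F1 sGC animals had 34.6, 1.55, 9.94, 14.8 and 2.94 CPM in replicates 1 to 5. Of the 5, 4 lay below the lowest control, replicates 2 and 5 rested on 29 and 44 reads against 248 to 756 reads in control, and replicate 1 lay within the control range. The mean was 23.7 ± 7.92 CPM in control (SD, n = 6) and 12.8 ± 13.3 CPM in sGC animals (SD, n = 5). The log2 fold change of -0.91 (SE 0.510) did not pass (adjusted p = 0.340 in the quasi-likelihood test, exact permutation p = 0.0541), and without sGC replicate 1 it was -1.73 with an adjusted p of 0.0503.

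The pair of F1 sGC animals with the least NTS, replicates 2 and 5, also had the least NTSR1 of the F1 animals. In F2, NTS lay between 21.1 and 38.8 CPM in control and between 19.1 and 40.1 CPM in sGC animals (log2 fold change -0.06, SE 0.170, adjusted p = 0.957). In F3 it lay between 21.97 and 46.56 CPM and between 24.03 and 39.31 CPM (log2 fold change 0.20, SE 0.163, adjusted p = 0.513). No F2 or F3 library came near the low values of the F1 sGC animals. The 46.56 CPM belonged to F3 control replicate 6, and without that library the F3 log2 fold change was 0.41 with an adjusted p of 0.0532.

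**Figure D3:**
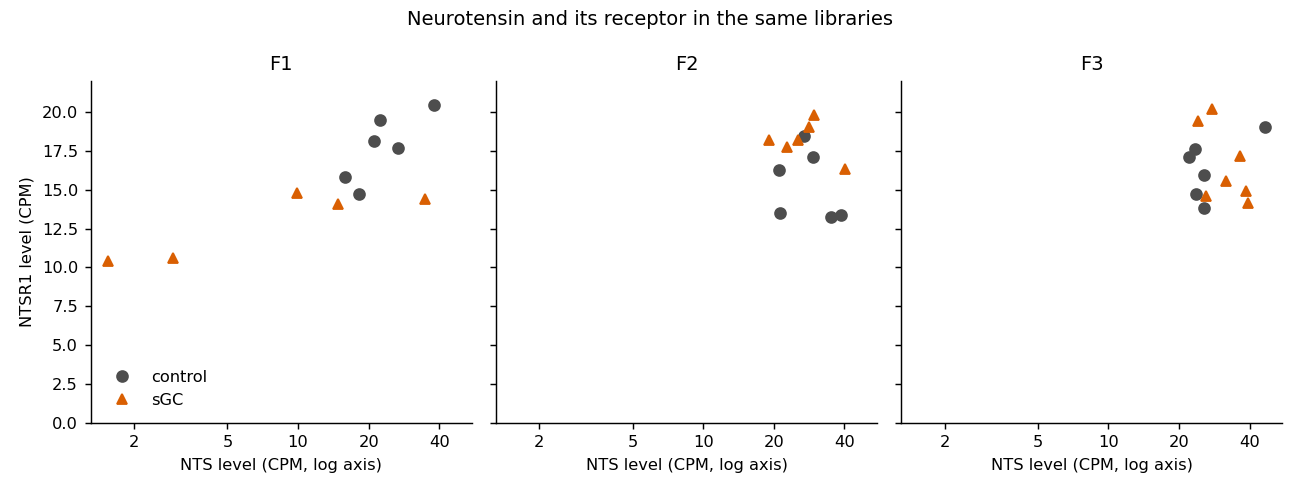
NTSR1 level in CPM (vertical axis) against NTS level in CPM (horizontal log axis) in each library of F1, F2 and F3, with control as grey circles and sGC as orange triangles. The F1 sGC libraries with 1.55 and 2.94 CPM of NTS hold 10.4 and 10.6 CPM of NTSR1, and the points of F2 and F3 show no such spread in NTS.

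CRHR2, a receptor for urocortins and, with lower affinity, for CRH, had the smallest p of the CRH system in F1. Its level was 23.8 to 29.6 CPM in control animals, with a median of 25.8 CPM. The F1 sGC animals had 28.03, 32.23, 29.28, 39.39 and 38.06 CPM in replicates 1 to 5. All 5 lay above the control mean of 26.1 ± 2.41 CPM (SD, n = 6) and 3 lay above the highest control, with an sGC mean of 33.4 ± 5.12 CPM (SD, n = 5). The log2 fold change was 0.35 (SE 0.0930, 95% interval 0.17 to 0.54), with an adjusted p of 0.0665 in the quasi-likelihood test and an exact permutation p of 0.0108. It passed in 3 other tests, with an adjusted p of 0.0132 in edgeR's likelihood ratio test, 0.0127 in DESeq2 and 0.0275 with all 36 libraries fitted together, and in 1 of 11 fits without 1 library (0.0302 without sGC replicate 1). These settings also called more of all genes, in turn 598 of 11377, 652 of 10069, 852 of 11390 and 319 of 11426. The main test called 237 of 11377. The 2 highest values belonged to libraries 35 and 32, and without libraries 32 to 36 the log2 fold change was 0.20 (adjusted p = 0.198).

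CRHR2 showed no such separation later. In F2 it ran from 27.9 to 33.7 CPM in control and from 23.7 to 37.5 CPM in sGC animals (log2 fold change 0.08, SE 0.0832, adjusted p = 0.853). In F3 it ran from 18.4 to 31.1 CPM and from 25.9 to 32.6 CPM (log2 fold change 0.03, SE 0.0939, adjusted p = 0.896), and the sign turned to -0.01 without libraries 32 to 36. The effect in F3 was lower than in F1 by 0.33 on the log2 scale, a difference that did not pass the interaction test (unadjusted p = 0.0239, adjusted p = 0.308).

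CRH was the least counted of the 8, with 11 to 45 reads per library, and its levels have wide errors. In F1 it was 1.66 to 2.52 CPM in control animals, with a median of 2.29 CPM, and 1.652, 2.241, 1.475, 1.556 and 2.003 CPM in sGC replicates 1 to 5. In this generation 4 of 5 sGC animals were under the control mean and the groups overlapped (log2 fold change -0.30, SE 0.158, adjusted p = 0.307 in the quasi-likelihood test). In F2 the ranges were 1.33 to 2.49 CPM and 1.33 to 2.39 CPM (log2 fold change -0.05, SE 0.184), and the sign turned to 0.01 without libraries 32 to 36. In F3 they were 1.19 to 2.49 CPM and 0.717 to 2.35 CPM, with 6 of 7 sGC animals below the control mean (log2 fold change -0.39, SE 0.227, adjusted p = 0.348). None of these differences passed the test.

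CRHBP, the binding protein, was measured at 12.5 to 18.6 CPM in F1 control animals, with a median of 14.3 CPM. The F1 sGC animals had 12.1, 11.2, 16.3, 11.9 and 12.3 CPM in replicates 1 to 5, so that 4 of 5 lay below the lowest control and replicate 3 stood apart within the control range. The log2 fold change was -0.22 (SE 0.113, adjusted p = 0.297 in the quasi-likelihood test), and without replicate 3 it was -0.33 with an adjusted p of 0.119. The F2 ranges were 15.5 to 17.9 CPM in control and 13.5 to 17.4 CPM in sGC animals (log2 fold change -0.09, SE 0.0626, adjusted p = 0.795). The F3 ranges were 11.0 to 18.1 CPM and 12.6 to 19.6 CPM (log2 fold change 0.03, SE 0.112, adjusted p = 0.915).

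Of the opioid peptide precursors, PDYN, the source of dynorphins, came nearest to the threshold in F3. Its level was 106 to 156 CPM in F3 control animals, with a median of 127 CPM, and 104 to 124 CPM in F3 sGC animals, with a median of 113 CPM. All 7 sGC animals were under the control mean and 2 lay below the lowest control, while the other 5 overlapped with the control range. Means were 129 ± 16.3 CPM (SD, n = 6) and 113 ± 7.20 CPM (SD, n = 7), with a log2 fold change of -0.19 (SE 0.0670, 95% interval -0.32 to -0.06) and an adjusted p of 0.111 in the quasi-likelihood test (exact permutation p = 0.0297). Without control replicate 5, the lowest of the controls, the adjusted p was 0.0316. In F3 edgeR's likelihood ratio test called none of the 8 genes and DESeq2 none of the 3 to which it gave an adjusted p (CRHR2, NTS and PDYN). In the quasi-likelihood test 2 of the 8, PDYN and ADCYAP1, had an unadjusted p below 0.05. By p they ranked only 1143 and 2225 among the 11359 genes tested, so such values were common in F3.

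PDYN did not pass in the other generations. In F1 it was 118.0 to 143.6 CPM in control animals and 109.5, 155.2, 125.8, 102.9 and 130.3 CPM in sGC replicates 1 to 5 (log2 fold change -0.09, SE 0.0897, adjusted p = 0.599). In F2 it was 125.3 to 135.7 CPM in control and 125.1 to 142.0 CPM in sGC animals (log2 fold change 0.06, SE 0.0344, adjusted p = 0.764). The effect in F3 was lower than in F2 by 0.25 on the log2 scale, which did not pass the interaction test (unadjusted p = 0.0140, adjusted p = 0.514).

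PENK, the precursor of the enkephalins, did not pass in any generation. In F1 it was 14.8 to 20.3 CPM in control animals and 16.4, 20.5, 14.1, 9.14 and 14.6 CPM in sGC replicates 1 to 5 (log2 fold change -0.23, SE 0.153, adjusted p = 0.424). In F2 it was 13.3 to 19.6 CPM in control and 12.4 to 25.5 CPM in sGC animals (log2 fold change 0.13, SE 0.137, adjusted p = 0.868). In F3 it was 11.1 to 18.9 CPM and 9.88 to 20.3 CPM (log2 fold change -0.17, SE 0.157, adjusted p = 0.570). The SD of PENK was larger in sGC than in control animals in all 3 generations (4.13 against 2.24 CPM in F1, 4.57 against 2.02 CPM in F2 and 3.72 against 2.92 CPM in F3), a difference in spread that was not tested.

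ADCYAP1, which encodes PACAP, was 14.2 to 18.5 CPM in F1 control animals and 15.5, 18.3, 14.5, 15.2 and 23.7 CPM in F1 sGC replicates 1 to 5 (log2 fold change 0.11, SE 0.122, adjusted p = 0.640). In F2 the ranges were 13.34 to 18.97 CPM in control and 12.22 to 17.98 CPM in sGC animals (log2 fold change 0.02, SE 0.102, adjusted p = 0.975). In F3 they were 13.66 to 19.06 CPM, with a median of 16.04 CPM, and 10.16 to 16.46 CPM, with a median of 14.03 CPM. In that generation 6 of 7 sGC animals were under the control mean and 2 below the lowest control, with a log2 fold change of -0.22 (SE 0.0997, unadjusted p = 0.0438, adjusted p = 0.223). The difference between the F3 and F1 effects, -0.34, did not pass (unadjusted p = 0.0470, adjusted p = 0.378).

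Counted together, 6 of the 8 genes were lower in F1 sGC animals; the median of their log2 fold changes was -0.23 against -0.01 over all genes tested. In F2, 5 were higher and 3 lower, with medians of 0.04 and -0.0004, and in F3, 4 were higher and 4 lower, with medians of -0.08 and 0.005. In no generation did the control and sGC ranges of any of the 8 genes lie fully apart, where 4.41% of all genes did in F1, 0.403% in F2 and 2.71% in F3. In F2, edgeR's quasi-likelihood test and its likelihood ratio test called none of the 8, and DESeq2 none of the 7 to which it gave an adjusted p (not CRH); 1, NTSR1, had an unadjusted p below 0.05. Between F3 and F1 none of the 8 effects passed the interaction test (4 at an unadjusted p below 0.05, namely NTSR1, CRHR2, NTS and ADCYAP1), and 0% of all genes did. Between F3 and F2 again none passed, with PDYN at an unadjusted p below 0.05 and 0% of all genes called. The likelihood ratio test called none of the 8 in either. The share of all genes at an unadjusted p below 0.05 was not counted, and only the ranks by p of single genes are given above. Counts at that level, here and for the lists below, therefore do not set these genes apart from others.

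Between control animals of different generations, NTSR1 was the one gene of the 8 that passed, lower in F2 than in F1 by 0.27 on the log2 scale (SE 0.103, adjusted p = 0.0334 in edgeR's quasi-likelihood test). The call was lost without F1 control replicate 2, 3 or 5 or F2 control replicate 2, 3 or 4, with an adjusted p of at most 0.0977. In that comparison 44.9% of all genes passed. F3 and F1 control animals differed in none of the 8 (0.0176% of all genes), and F3 and F2 in none (38.0% of all genes), with 0 of 8 at an unadjusted p below 0.05 and none called by the likelihood ratio test in either. The order of the control means in the joint scaling was F1, F3, F2 for CRH (2.27, 1.99 and 1.76 CPM), for NTSR1 (18.1, 16.6 and 15.2 CPM) and for PDYN (136, 130 and 127 CPM). It was F2, F3, F1 for CRHR2 (29.6, 27.6 and 26.7 CPM) and for NTS (28.5, 28.1 and 24.2 CPM). PENK ran F1, F2, F3 (18.1, 16.5 and 15.8 CPM), CRHBP F2, F1, F3 (16.1, 15.2 and 15.1 CPM) and ADCYAP1 F3, F1, F2 (16.5, 16.4 and 15.7 CPM). Generations that stand next to each other in these orders of means did not differ past the test. Generation cannot be told apart from the time of breeding. The labels give no date or batch of library preparation. Control libraries lie in separate ranges of library numbers (1 to 9 in F1, 12 to 17 in F2 and 23 to 31 in F3). Generation therefore cannot be told apart from anything that follows these numbers.

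Co-variation between animals was examined after removing each group's mean from log2 CPM, for all 28 pairs of the 8 genes over the 36 libraries. No pair passed after Benjamini-Hochberg adjustment over the 28 permutation tests, by Pearson's r or Spearman's rho, and 4 pairs had an unadjusted p below 0.05 by Pearson's r. NTS and PDYN had r = -0.49 (rho = -0.24, permutation p = 0.00368 and 0.159, adjusted p = 0.0877 and 0.741), which became -0.20 without the 2 libraries farthest from the NTS median, F1 sGC replicates 1 and 2, and so rests on those libraries. CRH and PENK had r = 0.44 (rho = 0.41, permutation p = 0.00736 and 0.0122, adjusted p = 0.0877 and 0.341), and 0.30 without the 2 farthest libraries. NTS and NTSR1 had r = 0.42 (rho = 0.31, permutation p = 0.00940 and 0.0635, adjusted p = 0.0877 and 0.444), and 0.28 without the same F1 sGC replicates 1 and 2. CRHBP and CRHR2 had r = -0.38 (rho = -0.35, permutation p = 0.0232 and 0.0394, adjusted p = 0.162 and 0.444), and again -0.38 without the 2 farthest libraries.

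The values varied between generations, and those differences were not tested. Adjusted p-values here cover the 28 pairs of 1 generation, not all generations together. The pairs with CRH rest on its 11 to 45 reads per library. Within the 11 F1 libraries NTS and NTSR1 were correlated, with r = 0.81 and rho = 0.86 (permutation p = 0.00037 and 0.00105, adjusted p = 0.0104 and 0.0294 over 28 pairs), and r was 0.84 without the 2 libraries farthest in NTS. Within F2 the same pair had r = -0.31 (12 libraries, adjusted p = 0.686) and within F3 r = -0.04 (13 libraries, adjusted p = 0.960). CRH and PENK had r = 0.85 and rho = 0.80 within F3 (permutation p = 0.00021 and 0.00173, adjusted p = 0.00588 and 0.0484, and r = 0.76 without the 2 farthest libraries), against 0.48 in F1 and -0.33 in F2. CRH and its binding protein had r = -0.78 within F1 (rho = -0.75, permutation p = 0.00319 and 0.0114, adjusted p = 0.0447 and 0.160), so that the relation passed by Pearson's r and not by Spearman's rho, and r was -0.62 without the 2 farthest libraries. The same pair had the opposite sign in the other generations, with r = 0.67 in F2 (permutation p = 0.0156, adjusted p = 0.293) and r = 0.35 in F3 (adjusted p = 0.850).

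For each of the 8 genes, the 3 genes with the most similar residuals among the 11161 tested in all 3 generations are given as a description over the 36 libraries. PDYN had the closest partners, PTER (r = 0.85), C1QL3 (r = 0.83), which is also in the list of excitatory neuron markers, and NEGR1 (r = 0.68). PENK was closest to SCG2 (r = 0.77), a secretory granule protein, TBL3 and EFNA5 (both r = 0.69). NTS was closest to GABRG3 (r = 0.74), a subunit of the GABA-A receptor, HS3ST2 (r = 0.74) and MYL1 (r = 0.71), and NTSR1 to CRYM (r = 0.69), PTH2R (r = 0.67) and LTK (r = 0.65). CRHR2 was closest to TULP4 (r = 0.77), the potassium channel gene KCNQ3 (r = 0.76) and MAP2 (r = 0.73), a protein of neuronal dendrites. ADCYAP1 was closest to SLC25A11 (r = 0.77), LETM1 (r = 0.66) and DGCR2 (r = 0.64), CRH to SCNN1G (r = 0.65), CDH18 (r = 0.60) and TNFAIP8L3 (r = 0.58), and CRHBP to TMEM126B (r = 0.61), RNF128 (r = 0.61) and RBKS (r = 0.59). All these values share the same libraries and depths. Each was picked as one of the highest among 11161 genes, and none was tested. Those of NTS were not recomputed without F1 sGC replicates 1 and 2, the libraries farthest from its median.

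The genes around the 8 were taken as lists. Of the partner receptors and ligands, 10 were tested in F1, 12 in F2 and 10 in F3, and OPRL1, the nociceptin receptor, was the only one called in the quasi-likelihood test, while 2, 0 and 2 had an unadjusted p below 0.05 in F1, F2 and F3. It fell in F3 from 65.1 ± 2.44 CPM (SD, n = 6) to 57.0 ± 3.64 CPM (SD, n = 7), with a log2 fold change of -0.19 (SE 0.0433, adjusted p = 0.0178 in the quasi-likelihood test). Of the genes for peptide processing and dense-core granules, 12 were tested in each generation, and 5 of the 12 fell in F3, where 5.04% of all genes passed; 10 of 12 were lower, with a list median of -0.17. In F3, 9 of the 12 had an unadjusted p below 0.05. None passed in F1 (2 at an unadjusted p below 0.05) or F2 (3), while edgeR's likelihood ratio test and DESeq2 called 7 of the 12 lower in F3. These 2 tests also called more of all genes in F3, 788 of 11359 and 944 of 7141, against 573 of 11359 in the quasi-likelihood test.

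The 5 were PCSK1 (log2 fold change -0.22, adjusted p = 0.0155) and PCSK2 (-0.19, adjusted p = 0.00897), the convertases that cut peptide precursors such as PENK and PDYN, SCG2 (-0.26, adjusted p = 0.0168) and VGF (-0.25, adjusted p = 0.0190), granule proteins, and CADPS (-0.21, adjusted p = 0.00483), which primes granules for release. PCSK1 fell from 210 ± 17.1 to 180.1 ± 9.25 CPM and PCSK2 from 216 ± 10.5 to 189 ± 7.82 CPM (SD, n = 6 control and 7 sGC animals). The count of 5 was the same without libraries 32 to 36 and ran from 5 to 7 when single libraries were left out. In the same F3 animals, where 5.04% of all genes passed, all 8 interneuron markers were lower, with GAD1 and GAD2 called. Their sums were 685 to 777 CPM in control and 548 to 749 CPM in sGC animals. All 8 astrocyte markers were higher, with SLC1A2, S100B and GLUL called and sums of 9188 to 10162 and 10380 to 11924 CPM. GLUL was called in 3 of 13 fits that left out 1 F3 library (without control replicate 1 or sGC replicate 2 or 6). All 8 meningeal fibroblast markers were higher, none past the test (3 at an unadjusted p below 0.05), with a median of 0.20 and sums of 115 to 185 CPM in control and 118 to 229 CPM in sGC animals. Of 9 excitatory neuron markers 2 were higher and 7 lower, none past the test (1 at an unadjusted p below 0.05). Their sums were 8480 to 9104 CPM in control and 7690 to 10753 CPM in sGC animals. Of 6 thalamic markers 4 were higher and 2 lower, with sums of 120.6 to 150.0 and 124.2 to 156.2 CPM. LEF1 was called higher (15.2 ± 0.713 against 17.9 ± 0.929 CPM, log2 fold change 0.23, adjusted p = 0.0153), and was not called without libraries 32 to 36 (adjusted p = 0.0638). The part of these cells in the F3 values of the processing genes, PDYN and ADCYAP1 was not tested.

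Of the other hippocampal neuropeptides, 10 were tested in each generation. In F1 all 10 were lower in sGC animals, with a list median of -0.17, and 2 fell, where 2.08% of all genes passed. TAC1, the precursor of substance P, fell from 15.8 ± 1.70 CPM (SD, n = 6) to 11.5 ± 1.49 CPM (SD, n = 5), with a log2 fold change of -0.46 (adjusted p = 0.0291). CCK, cholecystokinin, fell from 71.0 ± 3.85 to 60.5 ± 4.23 CPM (log2 fold change -0.23, adjusted p = 0.0399). Neither was called without libraries 32 to 36 (adjusted p = 0.0925 for TAC1 and 0.0563 for CCK), and the count ran from 0 to 2 when single libraries were left out, with 0 without any of control replicates 1 to 5 or sGC replicates 3 and 5. TAC1 also stands in the list of striatal markers. In F2, 7 of the 10 were higher and in F3, 7 were lower, none past the test, with 1 and 0 at an unadjusted p below 0.05.

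Of the other neuropeptide receptors, 10 or 11 were tested and none passed in any generation (0, 1 and 1 at an unadjusted p below 0.05 in F1, F2 and F3); the smallest p belonged to NPY1R, a neuropeptide Y receptor, in F3 (29.8 ± 2.31 CPM in 6 control and 26.6 ± 0.986 CPM in 7 sGC animals, adjusted p = 0.0617). Of 13 genes of the CREB pathway, through which cyclic AMP reaches transcription, 1 rose and 1 fell in F1, where 2.08% of all genes passed. CREB1, the activator, rose from 19.6 ± 1.63 to 23.8 ± 1.66 CPM (log2 fold change 0.28, adjusted p = 0.0494), and CREM, which also encodes repressors, fell from 9.09 ± 1.15 to 6.72 ± 0.630 CPM (log2 fold change -0.43, adjusted p = 0.0470); neither was called without libraries 32 to 36 (adjusted p = 0.0941 and 0.124). Of 11 fits that left out 1 F1 library, CREB1 was called in 2 (without sGC replicate 1 or 4) and CREM in 1 (without control replicate 5), with an adjusted p of at most 0.103 and 0.111. Among 9 immediate early genes, markers of recent neuronal activity, 8 were lower in F1 and all 9 higher in F2, and none passed (1, 0 and 0 at an unadjusted p below 0.05 in F1, F2 and F3); the smallest p belonged to DUSP1 in F1 (log2 fold change -0.29, adjusted p = 0.180).

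**Figure D4:**
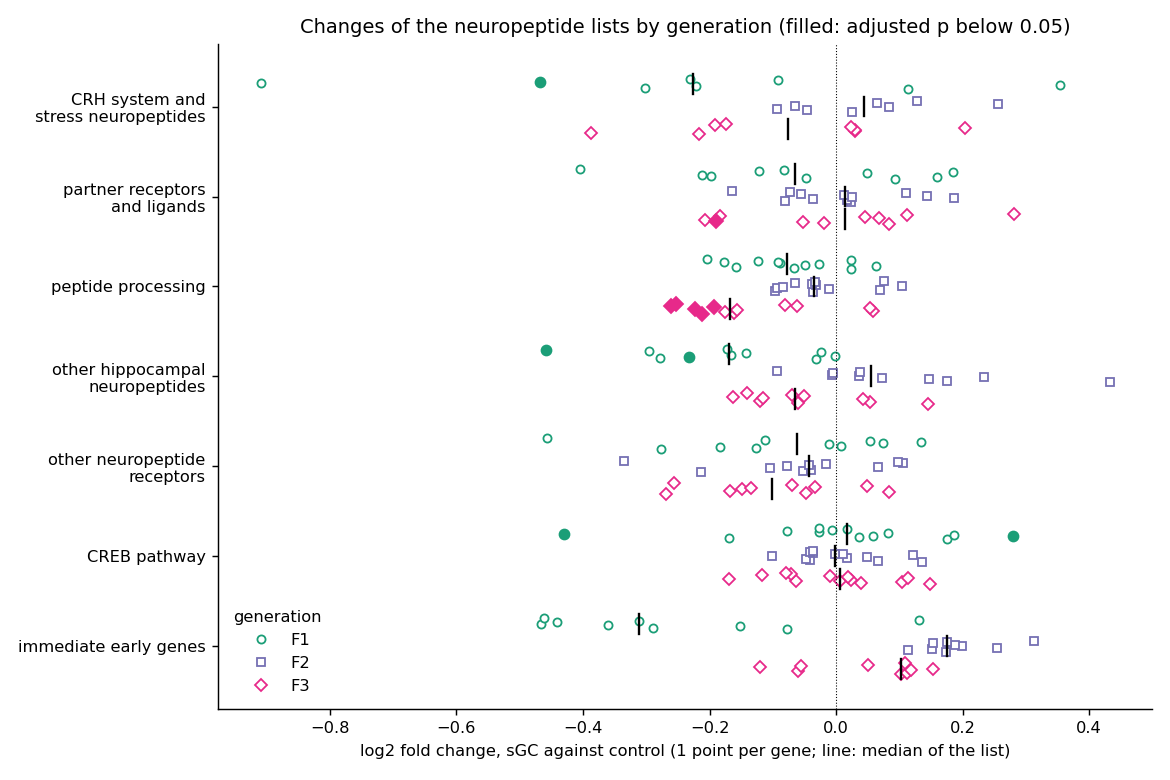
Log2 fold change of sGC against control (horizontal axis) for every tested gene of 7 lists (vertical axis) in F1 (circles), F2 (squares) and F3 (diamonds); filled markers have an adjusted p below 0.05 and vertical lines are list medians. The 5 filled diamonds of the peptide processing list lie between -0.26 and -0.19, and its F3 median is -0.17.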

How the data were processed

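mRNA of 36 right hippocampi was analysed. The authors prepared poly-A libraries, and TopHat2 and edgeR stand in the submitters' processing notes; the read counter and annotation are not given in the sources used here. The deposited values are whole-number read counts for every gene in each library, not normalized. The authors also deposited their own comparison (fold changes, dispersions, p-values), and the methylation tables hold their comparisons as well; neither was used.

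Groups came from the sample labels. In every generation alone, genes were filtered by filterByExpr, libraries were scaled by TMM and sGC was tested against control with edgeR's quasi-likelihood F test, Benjamini-Hochberg adjusted over all genes tested, at a threshold of 0.05 (R 4.3.3, edgeR 4.0.16, limma 3.58.1). The study's likelihood ratio test and DESeq2 1.42.0 were alternatives. Differences between generations were contrasts in 1 fit of 36 libraries and 11390 genes. Single genes were also tested by exact permutation of log2 CPM (prior count 1), two-sided, where the smallest p possible is 0.00216 in F1 and F2 and 0.000583 in F3. Correlations used 100000 permutations (Python 3.11.15, numpy 2.4.6, pandas 2.3.3, scipy 1.17.1, matplotlib 3.10.9). The fits were also run on simulated data. The changes set there were larger than that of NTSR1 in F1, so the run does not cover changes of that size.

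Libraries of 1 group differed by 2.1 to 28.7 chi-square units per degree of freedom, so none was a duplicate. Animals within a group came from independent mothers. The 10 genes and the lists were chosen with earlier results of these data known. Named were all members, every list gene past the threshold (of the pathway lists, where none passed in any generation, the gene with the smallest p), and the 3 genes most like each member. PDYN is spelled in mixed case in the tables. No sequences were printed, as none of the files' genome build was used here.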

Additional observations from a re-analysis of the deposited data

Results flagged for a closer look

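The sGC effect on NTSR1 differed between F2 and F1 by 0.71 on the log2 scale (adjusted p = 0.0270 in the interaction test of edgeR's quasi-likelihood fit), with 5 of 5 F1 sGC animals below and 6 of 6 F2 sGC animals above their control means.

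In 4 of 48 groups of libraries 1 value stood apart from the rest by Dixon's test, which by chance marks about 1 group in 20. CRHBP was 16.3 CPM in F1 sGC replicate 3, above the other F1 sGC animals. F3 control replicate 6 held both the lowest CRHR2 level of its group, 18.4 CPM, and the highest NTS level, 46.6 CPM. CRHR2 was 32.6 CPM in F3 sGC replicate 6, above the other F3 sGC animals. Without F3 control replicate 6 the F3 log2 fold change of CRHR2 was -0.06 and that of NTS 0.41 (adjusted p = 0.0532).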

How the results depend on the processing

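The count of the 8 genes called in F1 (1) was 2 with the likelihood ratio test, DESeq2 or all 36 libraries together (CRHR2 added), 0 with DESeq2's size factors and with no filter (NTSR1 adjusted p = 0.0512 in both), and 0 without libraries 32 to 36; it ran from 0 to 2 with single libraries left out. In F3 it ran from 0 to 1, for the interactions from 0 to 2 (F2 against F1) and from 0 to 1 (F3 against F1, where NTSR1 had an adjusted p of 0.0464 without F1 sGC replicate 4), and for F2 against F1 control from 0 to 1. Within generations 2 pairs of genes correlated in F1 and 1 in F3, against 0 over all libraries.

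Same-numbered libraries correlated by -0.36 to 0.29. These values were not compared with those of differently numbered libraries, so whether the numbers pair animals was not tested. With the replicate block, NTSR1 was not called in F1 (adjusted p = 0.113) or in the F2 against F1 interaction (0.0754). None of the other members was called in either. In F3 the block left 1 of the 12 processing genes called, and OPRL1 was not called with it.

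Signs turned, with no call, without libraries 32 to 36 for CRH (0.0145) and NTS (0.0196) in F2 and for CRHR2 (-0.00895) and NTSR1 (-0.0259) in F3. With single libraries left out, the log2 fold change ran from -0.0129 to 0.175 for ADCYAP1 in F1, from -0.168 to 0.0708 for CRH, from -0.205 to 0.0412 for NTS and from -0.0210 to 0.0893 for ADCYAP1 in F2, and from -0.0414 to 0.0911 for CRHBP, from -0.0589 to 0.0720 for CRHR2 and from -0.0327 to 0.0702 for NTSR1 in F3. The cause was not tested.

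Over all genes, calls in F1 (237) ran from 56 to 342 with single libraries left out and from 68 to 852 under the other settings, in F2 (0) from 0 to 1 and from 0 to 12, and in F3 (573) from 288 to 639 and, without the replicate block, from 317 to 944; the block called 1.51% of the F3 genes. In the F2 against F1 interaction (33) they ran from 0 to 219 and from 4 to 168, and in that of F3 against F1 (0) from 0 to 454 and from 0 to 431. F3 against F1 control gave 2, with 0 to 7 and 0 to 9. Depth limits CRH most, with 11 to 45 reads per library.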
